A study of Mus musculus with 10 samples.

Results

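The genes described here govern how pyruvate enters mitochondrial metabolism: the pyruvate dehydrogenase kinases Pdk1, Pdk2, Pdk3 and Pdk4, the phosphatases Pdp1 and Pdp2, the mitochondrial pyruvate carrier subunits Mpc1 and Mpc2, pyruvate carboxylase (Pcx) and Dlat, the acetyltransferase subunit of the pyruvate dehydrogenase complex. These 10 genes were chosen by symbol from the 49624 gene names of the deposited expression table. Each had a row of its own, with no other gene merged into it, and all 10 were among the 16056 genes that passed the filter on low values. RNA was sequenced from 10 libraries of mouse embryonic stem cells, in 5 groups of 2 that the labels call biological duplicates. Every group grew in serum-free medium with LIF and with the MEK and GSK3 inhibitors PD0325901 and CHIR99021.

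The KO group carried the label Mof-KO and the WT group the label wild type, both from C57BL/6J cells with Mof fl/fl alleles and the inducible Cre-ER TM. Cells of that experiment had 3 days of 4-hydroxytamoxifen, which activates the Cre recombinase, or of its ethanol vehicle, and the labels do not say which group had which. The labels name no group of that experiment beyond KO and WT, so the loss of Mof cannot be told apart from whatever agent the KO cells had. The Released, ETO and Control groups came from the E14tg2a line. ETO cells had etomoxir, an inhibitor of carnitine palmitoyltransferase and so of fatty acid oxidation, for 4 days, and Control cells had water. Released cells had etomoxir and then 4 more days without it. The dose of etomoxir is not given in the sources used here, and no group was a second untreated culture grown on to match the Released cells.

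Pyruvate made by glycolysis crosses the inner mitochondrial membrane through a carrier formed by Mpc1 and Mpc2. Inside, the pyruvate dehydrogenase complex turns it into acetyl-CoA, and pyruvate carboxylase turns it into oxaloacetate. The kinases switch the dehydrogenase off by phosphorylating its E1 alpha subunit, and the phosphatases remove that phosphate. Pdk4 is widely known as the kinase induced by fasting and fatty acids, and Pdk1 as a target of the hypoxia factor Hif1a; pluripotent stem cells are known for a high rate of glycolysis.

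The 250 bases before the RefSeq start of a gene are shown for Pdk1, Pdk2 and Pdk4, the kinases whose group means spanned over 2 log2 units, and for Pdp2 and Pcx, whose windows, like that of Pdk2, held an E-box, CACGTG. RefSeq windows on GRCm38.p6 were found for 9 of the 10 genes, all but Pdp1. Pdk1, Pdk2, Mpc1 and Pcx had 2 RefSeq starts each, and only the window of the most upstream start was searched. Capitals mark CACGTG and the hypoxia response core ACGTG, and lower case marks the rest. Each sequence is given 5′ to 3′ on the strand of its gene.
Pdk1, chr2:71872974-71873223, plus strand: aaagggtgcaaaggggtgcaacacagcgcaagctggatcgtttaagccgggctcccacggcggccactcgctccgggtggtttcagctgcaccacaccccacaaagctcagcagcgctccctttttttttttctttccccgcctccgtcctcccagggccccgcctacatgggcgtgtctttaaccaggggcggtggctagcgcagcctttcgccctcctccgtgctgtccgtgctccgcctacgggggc
Pdk4, chr6:5496279-5496528, minus strand: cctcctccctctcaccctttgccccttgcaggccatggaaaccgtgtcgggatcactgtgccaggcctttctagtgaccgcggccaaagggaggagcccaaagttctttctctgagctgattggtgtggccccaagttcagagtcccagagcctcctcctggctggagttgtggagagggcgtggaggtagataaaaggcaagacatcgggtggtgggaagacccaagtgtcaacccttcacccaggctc
Pdk2, chr11:95041372-95041621, minus strand: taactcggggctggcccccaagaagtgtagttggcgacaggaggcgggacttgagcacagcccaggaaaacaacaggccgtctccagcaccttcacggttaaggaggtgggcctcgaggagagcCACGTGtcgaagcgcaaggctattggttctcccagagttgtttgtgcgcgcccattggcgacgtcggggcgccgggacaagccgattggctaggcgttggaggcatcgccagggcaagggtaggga
Pdp2, chr8:104591222-104591471, plus strand: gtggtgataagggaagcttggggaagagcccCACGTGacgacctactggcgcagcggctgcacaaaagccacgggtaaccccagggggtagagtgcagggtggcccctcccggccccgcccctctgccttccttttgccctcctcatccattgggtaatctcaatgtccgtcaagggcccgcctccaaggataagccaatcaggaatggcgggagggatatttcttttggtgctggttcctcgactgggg
Pcx, chr19:4510222-4510471, plus strand: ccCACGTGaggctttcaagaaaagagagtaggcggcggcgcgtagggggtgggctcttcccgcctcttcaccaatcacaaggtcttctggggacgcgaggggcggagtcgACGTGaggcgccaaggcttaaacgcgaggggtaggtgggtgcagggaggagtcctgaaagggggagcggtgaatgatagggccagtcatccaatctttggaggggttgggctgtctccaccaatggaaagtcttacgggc

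Both strands were searched for these and for other motifs named below; the E-box contains the hypoxia response core. CACGTG began 126 bases before the start in Pdk2, 219 bases in Pdp2 and 248 bases in Pcx, and 6.02% of all 32851 RefSeq windows of this length held it. ACGTG outside an E-box was found in Pcx and in Pdk3, where it began 53 bases before the start, and 16.6% of all windows held ACGTG. The FoxO core GTAAACA, which 3.17% of all windows held, had no match in any of the 9 windows. Nor had AAGGTCA, known from sites of oestrogen-related receptors and PPARs and held by 4.08% of all windows. Neither Pdk1 nor Pdk4 held any of the motifs in these bases.

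Values below are the authors' normalised counts, a signal that for most values equals whole reads times 1 factor per library, given replicate 1 first. The libraries had totals of 10562067 to 13326172 normalised counts, from an estimated 9783474 to 16778587 reads, and 3 reads corresponded to 2.066 to 4.036 normalised counts. Changes are on the log2(normalised count + 1) scale with their standard error (SE), and a gene was called, and said to have risen or fallen, where limma gave an adjusted p (Benjamini-Hochberg, every tested gene included) below 0.05. With 2 libraries a group, p-values measure the spread between these libraries. The targeted gene, Kat8, which encodes Mof, had 222 and 205 normalised counts in KO and 433 and 357 in WT, a log2 change of -0.88 (SE 0.11, adjusted p = 3.64e-05). The deleted exons are not given in the sources used here, and the row covers the whole gene. Kat8 also shares 122 exonic bases with Prss8, a gene on the other strand.

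**Figure D1:**
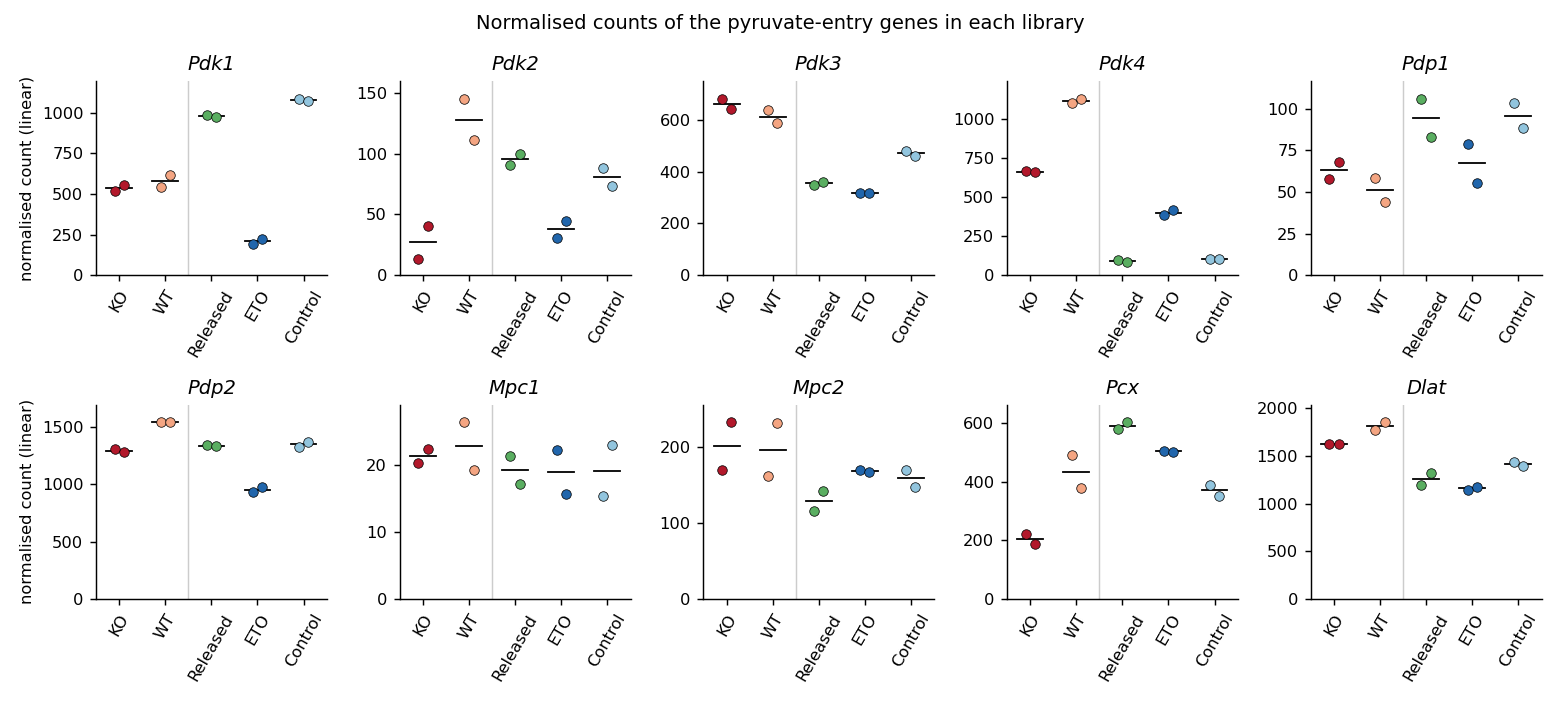
Normalised counts (linear axes from 0) of each of the 10 genes in each library; points are libraries, 2 a group, and short lines are group means. Pdk1 is lowest in ETO (193 and 223) and Pdk4 highest in WT (1104 and 1131), while Mpc1 stays between 15.4 and 26.3 in all 10 libraries.

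In KO cells the inhibitory kinases Pdk2 and Pdk4, the phosphatase Pdp2 and the carboxylase Pcx were lower than in WT cells, and none of the 10 genes was called higher. Of the 10 genes Pdk2, a broadly expressed kinase, had the largest change (-2.38 on the log2 scale), followed by Pcx (-1.07). Pdk1, Pdk3, Pdp1, Mpc1, Mpc2 and Dlat were not called. The 4 calls among 10 genes stood beside 37.9% of all tested genes called in this comparison, 24.6% higher and 13.3% lower. Higher genes were 64.8% of all calls as deposited, 52.5% with median-of-ratios scaling and 37.3% with libraries scaled by their total. The median log2 change was -0.13 over the 10 genes and 0.08 over all tested genes.

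Among the kinases, Pdk2 had 13.5 and 40.6 normalised counts in KO, against 145 and 111 in WT. Both KO libraries lay below both WT libraries, and the KO libraries were 1.52 log2 units apart. The log2 change was -2.38 (SE 0.38, adjusted p = 0.000395). It was -1.62 without KO replicate 1 and -3.15 without KO replicate 2, and in the deposited FPKM table (values per transcript length and library size) it was -1.73 with an adjusted p of 0.152 in limma. An antisense gene, Gm11513, lies over Pdk2, shares no exonic base with it and was at 0 in every library.

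Pdk4 had 665 and 661 normalised counts in KO, against 1104 and 1131 in WT. The replicates of each group lay close together and the groups did not overlap. The log2 change of Pdk4 was -0.75 (SE 0.10, adjusted p = 4.96e-05), and in the FPKM table its change of -0.67 was not called (adjusted p = 0.145 in limma). Pdk1 had 518 and 552 normalised counts in KO and 541 and 614 in WT, so that the groups overlapped. Its log2 change of -0.11 had a 95% interval of -0.31 to 0.09 (adjusted p = 0.394). Pdk3, whose gene lies on the X chromosome, had 682 and 643 in KO and 637 and 589 in WT, without overlap, and its log2 change of 0.11 was not called (adjusted p = 0.338).

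Pdp2, which removes the inhibitory phosphate, had 1305 and 1285 normalised counts in KO, against 1541 and 1540.4 in WT. The groups did not overlap, and the difference was small beside those of Pdk2 and Pcx, with a log2 change of -0.25 (SE 0.06, adjusted p = 0.0061). That call was lost in the FPKM table (adjusted p = 0.0854) and in a limma fit of this experiment alone (adjusted p = 0.0555). Pdp1, the calcium-stimulated phosphatase, had 57.9 and 68.1 in KO and 58.3 and 44.2 in WT, with overlapping groups and a log2 change of 0.30 that was not called (adjusted p = 0.32).

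Of the carrier subunits, Mpc1 had 20.2 and 22.3 normalised counts in KO and 26.3 and 19.2 in WT. Mpc2 had 169.5 and 232 in KO and 161 and 231 in WT. The groups overlapped for both, and the 95% intervals of the log2 change ran from -0.81 to 0.65 for Mpc1 and from -0.36 to 0.44 for Mpc2. Mpc1 values are uncertain, since a near-identical copy, Mpc1-ps, had 25.6 and 40.6 in KO and 47.2 and 39.3 in WT, more than Mpc1 itself, and 480 exonic bases are shared with a gene on the other strand, 4930506C21Rik.

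Pcx, the enzyme that refills the citric acid cycle with oxaloacetate, had 223 and 188 normalised counts in KO, against 491 and 378 in WT. Both KO libraries lay well below both WT libraries and below every library of the other groups. The log2 change was -1.07 (SE 0.12, adjusted p = 1.36e-05), and it was called in every alternative run. Lrfn4, on the other strand within Pcx and without shared exonic bases, changed by -0.20 (adjusted p = 0.396). Dlat had 1631 and 1624 in KO and 1769 and 1854 in WT, without overlap, and its log2 change of -0.15 was not called (adjusted p = 0.0904). With libraries scaled by their total, Dlat changed by -0.32 (adjusted p = 0.00129) and Pdk1 by -0.27 (adjusted p = 0.0288). Both were then called in limma. Dlat was also called with median-of-ratios scaling (-0.23, adjusted p = 0.0129) and in the FPKM table (-0.28, adjusted p = 0.04).

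The counts for the rest of the pathway stand beside the 37.9% of all tested genes called in KO against WT. Of 13 genes for dehydrogenase subunits, lipoylation and thiamine supply, 1 rose and 2 fell. Pdhb, the E1 beta subunit, rose by a log2 change of 0.44, Lias, the lipoic acid synthase, changed by -0.40, and Pdpr, which regulates the phosphatase, by -0.69. Of 14 tested genes among 18 for other sources and fates of pyruvate, 3 rose and 5 fell: the alanine aminotransferase Gpt2 changed by 0.89, the carboxykinase Pck2 by 0.81, the monocarboxylate transporter Slc16a1 by 0.35, and the lactate dehydrogenase Ldhc by -1.54. Of 10 tested genes among 13 for regulators known to act on Pdk genes, 3 rose and none fell, among them the glucocorticoid receptor Nr3c1 (1.00, adjusted p = 3.91e-05) and Hif1a (0.27, adjusted p = 0.0104). Summed marker genes of embryonic stem cells, all 8 present, were at 55020 to 55280 normalised counts in KO and 58680 to 60470 in WT. The markers did not move together: Nanog (0.35), Zfp42 (0.41) and Klf4 (0.235) rose, Esrrb (-0.41) and Tbx3 (-0.31) fell, and 3 were not called. Esrrb had mean normalised counts of 13077 in KO and 17401 in WT.

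**Figure D2:**
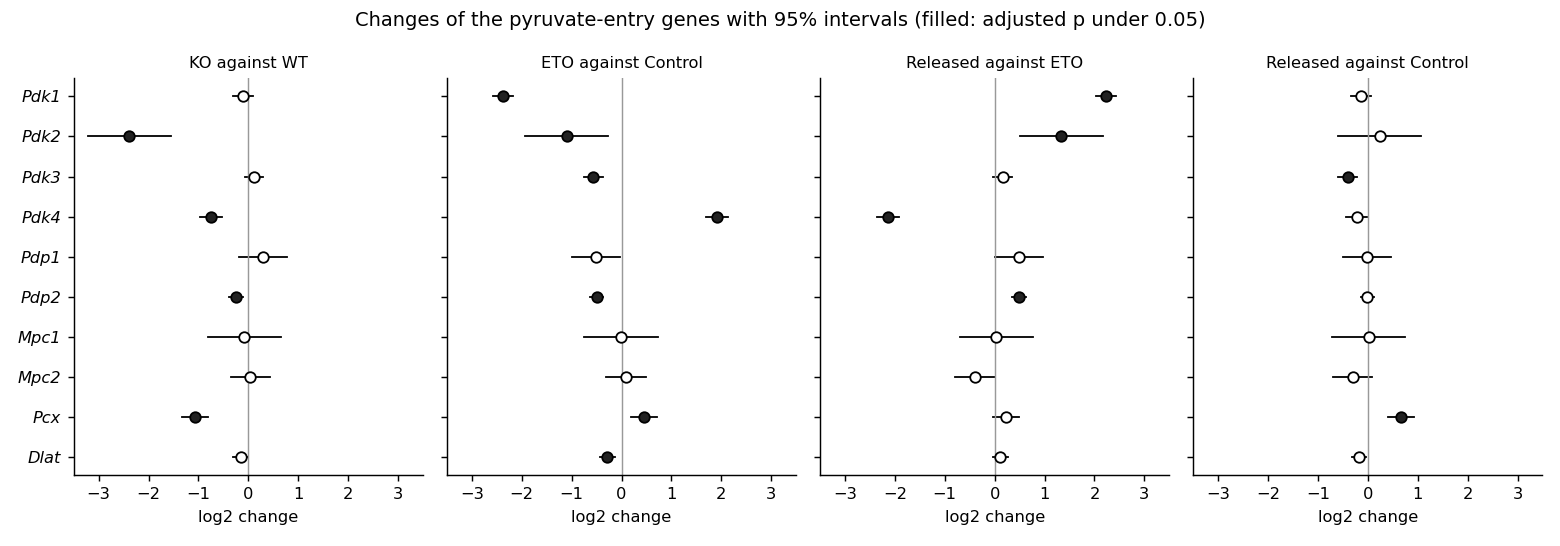
Log2 changes of the 10 genes, with bars that span the 95% interval of each change. Only the comparisons drawn are covered, not all 6 that were tested. Filled points are called at an adjusted p under 0.05. Pdk1 and Pdk4 lie on opposite sides of 0 in ETO against Control (-2.37 and 1.92). With the signs turned, they do so in Released against ETO (2.23 and -2.14). Both comparisons use the same ETO libraries, with opposite signs.

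In etomoxir the kinases parted: Pdk1 was lower than in Control by a log2 change of -2.37, Pdk2 and Pdk3 were lower too, and Pdk4 was higher by a log2 change of 1.92. The phosphatase Pdp2 and the dehydrogenase subunit Dlat fell, Pcx rose, and Pdp1, Mpc1 and Mpc2 were not called. In all, 2 of the 10 genes rose and 5 fell, beside 60.8% of all tested genes called, 26.8% higher and 34% lower. Higher genes were 44.1% of all calls as deposited and 58.7% with libraries scaled by their total. The median log2 change was -0.39 over the 10 genes and -0.09 over all tested genes. Fewer cells of a kind and less RNA per cell cannot be told apart in such bulk samples.

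Pdk1 had 193 and 223 normalised counts in ETO, against 1085 and 1070.03 in Control. ETO libraries were the lowest of all 10 and far from those of Control. The log2 change was -2.37 (SE 0.09, adjusted p = 1.64e-11). Pdk4 had 384 and 417 in ETO, against 103 and 107 in Control. Its groups lay far apart in the opposite direction, with a log2 change of 1.92 (SE 0.10, adjusted p = 3.82e-10). Both changes were called in every alternative run.

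Pdk3 had 317 and 318 normalised counts in ETO, against 481 and 459.8 in Control. The groups did not overlap and the log2 change was -0.56 (SE 0.09, adjusted p = 4.39e-05). Pdk2 had 30.6 and 44.8 in ETO, against 88.1 and 73.7 in Control. It was lower in both ETO libraries, with a log2 change of -1.10 (SE 0.38, adjusted p = 0.024), but the call was lost in several alternatives. The adjusted p in limma was 0.154 without ETO replicate 1, 0.116 without Control replicate 1, 0.0532 without Control replicate 2, 0.332 in the FPKM table and 0.0508 with libraries scaled by their total.

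Pdp2 had 933 and 975 normalised counts in ETO, against 1329 and 1368 in Control, the lowest of the 5 groups. The log2 change was -0.50 (SE 0.06, adjusted p = 6.12e-06). Pdp1 had 79.1 and 55.6 in ETO and 103 and 88.2 in Control, without overlap, and its log2 change of -0.52 was not called (adjusted p = 0.0582). Without ETO replicate 1 it was -0.77 and called (adjusted p = 0.0256 in limma).

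Mpc2 had 169 and 167 normalised counts in ETO and 169.5 and 147 in Control, and Mpc1 had 22.2 and 15.6 in ETO and 15.4 and 22.8 in Control. Groups overlapped for both, with log2 changes of 0.09 (adjusted p = 0.707) and -0.01 (adjusted p = 0.984). The copy Mpc1-ps stood at 65.2 and 68.1 in ETO and 35.2 and 39.4 in Control.

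Pcx had 506 and 502 normalised counts in ETO, against 391 and 352 in Control. Both ETO libraries lay above both Control libraries, with a log2 change of 0.44 (SE 0.12, adjusted p = 0.0057). The call was lost without Control replicate 2 (0.37, adjusted p = 0.0664) and in the FPKM table (adjusted p = 0.0553), and Lrfn4 within it rose too, by 0.59 (adjusted p = 0.00746). Dlat had 1145 and 1179.8 in ETO, against 1435 and 1399 in Control, a log2 change of -0.29 (SE 0.07, adjusted p = 0.00196), which was -0.10 and not called (adjusted p = 0.211) with libraries scaled by their total.

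The counts for the rest of the pathway stand beside the 60.8% of all tested genes called in ETO against Control. Of the 13 dehydrogenase, lipoylation and thiamine genes, 5 rose and 5 fell: the thiamine transporter Slc19a2 changed by 0.70, the E1 alpha subunit Pdha1, which the kinases phosphorylate, by -0.57, Pdpr by -0.67, and the dehydrogenase-binding subunit Pdhx by -0.32. Of the 14 tested genes of other pyruvate routes, 2 rose and 8 fell. Among those that fell were the lactate dehydrogenases Ldha (-2.37) and Ldhb (-1.39), the lactate exporter Slc16a3 (-3.09) and pyruvate kinase Pkm (-1.60), whose row is merged with AC160637.1. Of the 10 tested regulators, 7 rose and 2 fell: the fatty acid receptor Ppard changed by 1.43, Nr3c1 by 1.99, Foxo3 by 1.08 and Hif1a by 0.56, its row merged with AC124712.1 and Snapc1. The coactivator Ppargc1a, also among those that rose, had 34.6 and 29.1 normalised counts in ETO, against 1.10 and 0 in Control. The 2 regulators that fell were Ppargc1b (-0.61, adjusted p = 0.0132 in limma) and Arnt (-0.37, adjusted p = 7.11e-05 in limma).

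Other features of the ETO libraries moved with these changes. The 8 embryonic stem cell markers, all of which fell, summed to 38160 to 40210 normalised counts in ETO and 62240 to 62370 in Control. The 6 primitive endoderm markers summed to 320.5 to 329.1 in ETO and 80.36 to 84.07 in Control. Of the 4 tested, Gata4 (mean 131 in ETO, 21.4 in Control), Gata6 (127 and 12.8) and Foxa2 (25.6 and 4.83) rose. Pdgfra was not called (log2 change -0.20, adjusted p = 0.602 in limma), and Sox17 and Sox7 were too low to be tested. The 7 fibroblast markers summed to 167.7 to 169 in ETO and 62.27 to 64.94 in Control. Among them, 1 was at 0 in both ETO libraries and 1 at 0 in both Control libraries. Most of the fibroblast sum was Col1a1, with 152 and 154 in ETO and 39.6 and 40.5 in Control; the other 6 were each at 10.9 or less in ETO and 10.4 or less in Control, and Thy1, the only other one tested, was not called (log2 change -0.31, adjusted p = 0.541). Rows of mitochondrially encoded genes held 0.761% and 0.588% of the signal in ETO and 3.387% and 3.343% in Control. Their part in the kinase changes was not tested.

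**Figure D3:**
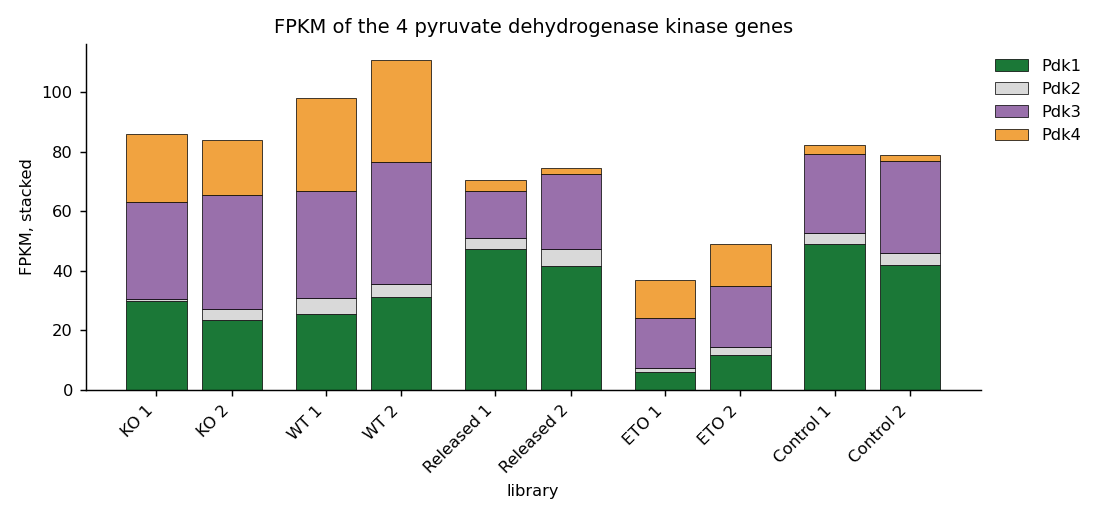
FPKM of the 4 kinases stacked for each library (linear axis from 0), 2 libraries a group. FPKM per normalised count varied between libraries for each kinase. Pdk1 makes up 16.6% and 23.8% of the kinase FPKM in ETO and 53% to 59.6% in Control, while Pdk4 makes up 28.4% and 34.7% in ETO and 2.75% to 3.38% in Control.

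On the FPKM scale, which divides by transcript length so that levels of different genes can be compared, the mix of kinases differed between groups. That comparison is limited, since FPKM per normalised count varied between libraries for all 4 kinases. The highest value over the 10 libraries was 2.36 times the lowest for Pdk2, 2 for Pdk4, 1.82 for Pdk1 and 1.53 for Pdk3. In ETO, 1000 normalised counts stood for 31.8 and 52.1 FPKM of Pdk1. The 4 kinases summed to 85.76 and 83.83 FPKM in KO, 97.88 and 110.6 in WT, 70.56 and 74.33 in Released, 36.89 and 49 in ETO, and 82.12 and 78.9 in Control. ETO libraries had the lowest sums. Pdk3 was the most abundant kinase in KO (35.4 ± 4.12 FPKM, SD, n = 2) and in WT (38.4 ± 3.49), and Pdk1 in Released (44.6 ± 3.96) and Control (45.4 ± 5.01). In ETO, Pdk3 at 18.6 ± 2.69 FPKM and Pdk4 at 13.4 ± 0.783 exceeded Pdk1 at 8.88 ± 3.90. Of the phosphatases, Pdp2 had more FPKM than Pdp1 in every group, with 11.6 ± 0.360 against 2.02 ± 0.605 in ETO as the lowest Pdp2 level. The ratio of summed kinase to summed phosphatase FPKM was 4.93 and 4.79 in KO, 4.79 and 5.55 in WT, 3.65 and 4.01 in Released, 2.66 and 3.63 in ETO, and 4.28 and 4.1 in Control.

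After 4 days without etomoxir, Pdk1, Pdk2 and Pdp2 were higher than in ETO cells and Pdk4 was lower, while Pdk3, Pdp1, Mpc1, Mpc2, Pcx and Dlat were not called. Thus 3 of the 10 genes rose and 1 fell, beside 57.7% of all tested genes called, 33.1% higher and 24.6% lower; higher genes were 57.4% of all calls as deposited and 45% with libraries scaled by their total. Pdk1 had 983 and 971 normalised counts in Released against the 193 and 223 of ETO, a log2 change of 2.23 (adjusted p = 4.96e-11). Pdk4 had 94.3 and 85.5 in Released against the 384 and 417 of ETO, a log2 change of -2.14 (adjusted p = 1.72e-10). For both kinases the groups stood far apart.

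Pdk2 had 90.9 and 99.6 normalised counts in Released against 30.6 and 44.8 in ETO, a log2 change of 1.34 (adjusted p = 0.00919). The change was 1.07 and not called without ETO replicate 1. In the FPKM table it was 1.185 and not called (adjusted p = 0.244 in limma). Pdp2 had 1341 and 1336 in Released against 933 and 975 in ETO, a log2 change of 0.49 (adjusted p = 8.82e-06). Pcx had 581 and 603 in Released against 506 and 502 in ETO, without overlap, and its log2 change of 0.23 was not called (adjusted p = 0.121). In the wider pathway, Ldha changed by 1.90, Slc16a3 by 2.49 and Pdha1 by 0.57 between Released and ETO, and Ppard by -1.15, Nr3c1 by -1.46 and Foxo3 by -0.82. Summed markers in Released were at 63570 to 63620 for stem cells, 103.1 to 115.7 for primitive endoderm and 71.48 to 84.01 for fibroblasts. In Control the endoderm and fibroblast sums were 80.36 to 84.07 and 62.27 to 64.94. Against Control, Tbx3 (0.44, adjusted p = 0.000259) was the only stem cell marker of 8 called in limma. Of 4 tested endoderm markers only Gata6 (1.22, adjusted p = 0.0165) was called, and of 2 tested fibroblast markers none was.

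Set against Control cells, Released cells differed in 2 of the 10 genes, 1 of them higher and 1 lower, beside 12.5% of all tested genes called, 7.03% higher and 5.51% lower; higher genes were 56.1% of all calls as deposited and 70% with libraries scaled by their total. Released against Control and Released against ETO share the Released libraries. ETO against Control and Released against ETO share the ETO libraries, which enter them with opposite signs. Pdk3 had 349 and 359.7 normalised counts in Released, against 481 and 459.8 in Control. Both Released libraries lay near those of ETO and below those of Control, with a log2 change of -0.41 (SE 0.09, adjusted p = 0.00659). The call was lost without Control replicate 1 (-0.38, adjusted p = 0.0722), without Released replicate 1 (-0.39, adjusted p = 0.0701) and in the FPKM table (adjusted p = 0.242). Pcx had 581 and 603 in Released, against 391 and 352 in Control, a log2 change of 0.67 (SE 0.12, adjusted p = 0.00226). These were the highest Pcx values of the 5 groups, and the difference was not called in the FPKM table (adjusted p = 0.0817).

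Pdk1 in Released was within a log2 change of -0.14 of Control (95% interval -0.34 to 0.06, adjusted p = 0.361), though both Released libraries lay below both of Control. Pdk4 differed by -0.22 (95% interval -0.44 to -0.01, adjusted p = 0.167), and Pdp2 by -0.01 (adjusted p = 0.942). Mpc2 had 115 and 142 normalised counts in Released and 169.5 and 147 in Control, without overlap, and Dlat 1193 and 1324 in Released and 1435 and 1399 in Control, also without overlap, and neither was called. Elsewhere in the pathway Ldhb (-1.14) and Ldha (-0.47) were lower in Released than in Control, 0 of the 14 tested genes of other pyruvate routes rose and 6 fell, and of the 10 tested regulators 6 rose and 1 fell.

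WT and Control cells themselves differed in 6 of the 10 genes, 4 higher and 2 lower in WT. That stood beside 62.9% of all tested genes called, 31.1% higher and 31.8% lower. Line, experiment and the agent or vehicle that each group had cannot be told apart there. Pdk4 had 1104 and 1131 normalised counts in WT, against 103 and 107 in Control, 10.5-fold higher (log2 change 3.40, SE 0.10, adjusted p = 1.29e-12). This WT level exceeded that of every ETO library. Pdk3, Pdp2 and Dlat were also called higher in WT than in Control, by 0.38, 0.19 and 0.35 on the log2 scale, and Pdk1 and Pdp1 lower, by -0.90 for each. In the FPKM table Pdk1 (adjusted p = 0.0762), Pdk3 (0.148) and Pdp2 (0.105) were not called in limma, and Pdp2 was not called without Control replicate 1 (adjusted p = 0.0948).

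The change with the Mof knockout and the change with etomoxir were compared by the difference between them. It was called for 6 of the 10 genes, beside 54.5% of all tested genes, 32.3% with a higher and 22.2% with a lower difference; higher genes were 59.3% of all calls as deposited, 46.7% with median-of-ratios scaling and 34.5% with libraries scaled by their total. For Pdk4 the change was -0.75 in KO against WT and 1.92 in ETO against Control, and the difference was -2.67 (adjusted p = 1.97e-09). For Pdk1 the changes were -0.11 and -2.37, with a difference of 2.26 (adjusted p = 4.25e-09). For Pcx they were -1.07 and 0.44, with a difference of -1.51 (adjusted p = 3.34e-06). Pdk3 differed by 0.68 (adjusted p = 0.000275). Pdp1 differed by 0.82 (adjusted p = 0.0405) and Pdp2 by 0.25 (adjusted p = 0.0293), but these calls held in 8 and 10 of 18 alternatives, and with libraries scaled by their total the Pdp2 difference was -0.11 and not called (adjusted p = 0.354). Pdk2 fell in both comparisons and its difference of -1.29 was not called (adjusted p = 0.0603); it was -2.05 and called without KO replicate 2 (adjusted p = 0.000326 in limma). Not called either was the difference of Dlat, 0.13 (adjusted p = 0.264). Mpc1 and Mpc2 were not called in any of the 6 comparisons as fitted here; Mpc2 was called lower in Released than in ETO in some alternatives, such as with libraries scaled by their total (-0.54, adjusted p = 0.0191 in limma).

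**Figure D4:**
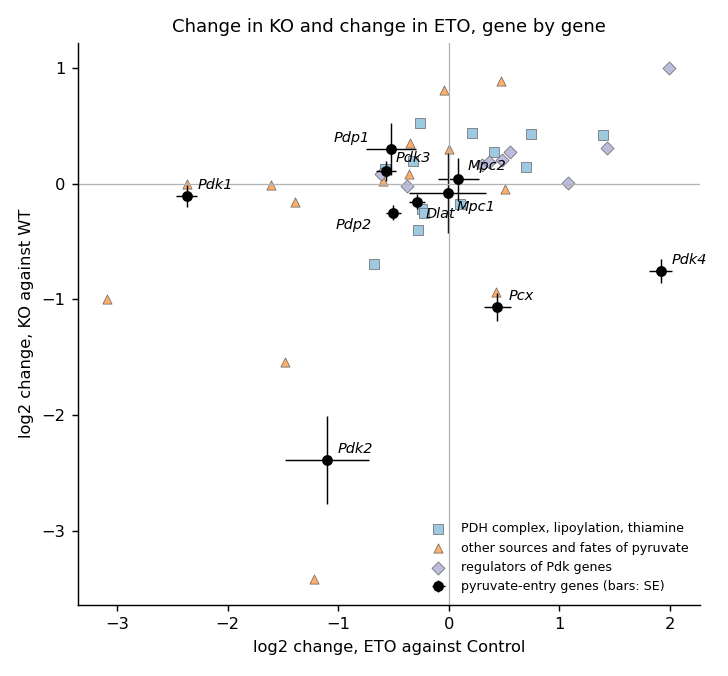
Log2 change in KO against WT (y axis) is plotted against log2 change in ETO against Control (x axis). Points are the 10 genes and the tested genes of the pathway lists. Ppargc1a is left off because it is near 0 in Control. Pdk4 lies at 1.92 and -0.75 (x, then y), and Pcx at 0.44 and -1.07. Pdk1 is near 0 on the y axis, at -2.37 and -0.11.

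Ordered by mean level, Pdk4 ran from WT over KO, ETO and Control to Released, and no neighbours in that order overlapped. Pdk1 ran from Control over Released, WT and KO to ETO, where only KO and WT overlapped. Pdk2 ran from WT over Released, Control and ETO to KO, with KO and ETO overlapping, and Pdk3 from KO over WT, Control and Released to ETO, with no overlap. Pcx ran from Released over ETO, WT and Control to KO, with WT and Control overlapping. Genes with the most similar pattern were sought among 10406 genes by the root mean square distance of centred log2 group means over the 5 groups, for members that spanned at least 1 log2 unit. Closest to Pdk1 were Kifc3 (0.148), Itpka (0.185) and Ngfr (0.188), and closest to Pdk4 were Idua (0.207), Fermt3 (0.257) and Mocos (0.264). Closest to Pdk2 were Cpn1 (0.281), Fcho1 (0.291) and Bcas1 (0.339), to Pdk3 Napepld (0.037), Sdhaf3 (0.042) and Zfp85 (0.044), and to Pcx Rmdn3 (0.127), Pstpip2 (0.159) and Lrrc24 (0.16).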

How the data were processed

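Per the labels' protocols, RNA was isolated with RNeasy kits and DNase, and TruSeq libraries were read single-end. TopHat2 2.1.1, SAMtools 1.5, deepTools and mm10 are named in the submitters' processing notes; the program that made the gene tables and its use of strand are not given in the sources used here. The deposited gene table holds a signal per gene that mostly, but not always, equals whole reads times 1 factor for the library. Within 0.1 read, 88.82% to 90.53% of low values (under 20 normalised counts) and 84.41% to 85.57% of all values were whole reads. No count model was therefore fitted. The deposited FPKM table holds FPKM values per gene.

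Values of rows with the same name were summed. Genes with at least 10 normalised counts in at least 2 libraries were tested on log2(value + 1) with limma 3.58.1 in R 4.3.3, with an intensity trend and robust moderation, 1 mean per group over all 10 libraries, and two-sided tests for 6 comparisons. The pseudocount shrinks the changes of low genes. Mitochondrial rows listed at 0 in Released replicate 1, at 218611 and 15492.4 in Released replicate 2, were left out of the tests after this was seen. The alternatives were other scalings, pseudocounts and filters, the FPKM table on log2(FPKM + 0.1), a fit per experiment, other moderation, a replicate block and leaving out each library. Same-numbered replicates were not treated as pairs in the main fit, and whether they were paired in the experiment is not known.

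The 10 genes, the pathway and marker lists and the motifs were chosen with earlier results of these data known. All 10 genes are named, and of each pathway list up to 4 genes a comparison with the smallest adjusted p. Some that this rule took are left out of the text. Ppargc1a, Ppargc1b and Arnt in ETO against Control are named beyond the rule. Gene positions come from GENCODE on GRCm38. The procedure was tested on simulated data. Tables and figures were made in Python 3.11.15 with pandas 2.3.3 and matplotlib 3.10.9.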

Additional observations from a re-analysis of the deposited data

Results flagged for a closer look

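For 6 of the 10 genes the change in KO against WT differed from the change in ETO against Control by a test of the difference itself (KO change minus ETO change, limma, Benjamini-Hochberg adjusted over all tested genes). The log2 difference was -2.669 for Pdk4 (adjusted p = 1.97e-09), 2.264 for Pdk1 (adjusted p = 4.25e-09) and -1.509 for Pcx (adjusted p = 3.34e-06), and these 3 were called in every alternative run. For Pdk3 it was 0.677 (adjusted p = 0.000275), and it was not called in the FPKM table (adjusted p = 0.22). For Pdp1 it was 0.82 (adjusted p = 0.0405) and for Pdp2 0.249 (adjusted p = 0.0293). The Pdp1 call was lost without WT replicate 2 (0.62), KO replicate 2 (0.70), Control replicate 1 (0.71), Control replicate 2 (0.93) or ETO replicate 2 (0.57), and the Pdp2 call without KO replicate 1 (0.24), Control replicate 1 (0.27), Control replicate 2 (0.23) or ETO replicate 1 (0.22). The groups come from different lines and experiments, which cannot be told apart from the kind of treatment.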

How the results depend on the processing

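Of 60 changes (10 genes in 6 comparisons), 29 were called; 14 of these were called in every alternative and 15 were lost in at least 1, while 11 of the others were called in at least 1. The cause was not tested. In the FPKM table, all genes called were 2959 in place of 6086 for KO against WT and 348 in place of 2012 for Released against Control. Calls among the 10 genes there were 2 in place of 4 for KO against WT. Pdk2, Pdk4 and Pdp2 were no longer called, and Dlat was gained (-0.28, adjusted p = 0.04 in limma). Calls there were also 0 in place of 2 for Released against Control. They were 3 in place of 6 for WT against Control, and 3 in place of 6 for the KO change minus the ETO change. A fit per experiment, not possible for the last 2 of these comparisons, gave 7 of the 10 in place of 4 for Released against ETO and 3662 genes for Released against Control, where limma without trend and robust moderation gave 1171. Leaving out 1 library gave 770 to 2864 genes for Released against Control, with 882 and 896 without Control replicates 1 and 2 and 828 and 770 without Released replicates 1 and 2, and among the 10 genes 1 to 2. Elsewhere it gave 4 to 4 of the 10 genes for KO against WT, 5 to 8 for ETO against Control, 4 to 5 when Released was set against ETO, 5 to 7 for WT against Control and 4 to 6 for the KO change minus the ETO change. Scaling by the total moved the median of all genes by -0.157 for KO against WT and by 0.182 for ETO against Control, by -0.139 for Released against ETO and by -0.347 for the KO change minus the ETO change (-0.18 with median-of-ratios scaling), and the difference of Pdp2 between the KO and ETO changes to -0.106 (adjusted p = 0.354), the opposite sign.

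With the replicate number as a block, 4 of the 10 genes were called for KO against WT, 8 in place of 7 for ETO against Control, and 4 when Released cells were set against ETO, 2 when they were set against Control, 6 for WT against Control and 6 for the KO change minus the ETO change; all genes called for KO against WT were 6240. Replicate differences correlated at -0.036 to 0.081 between groups. Such values show no strong shift shared by same-numbered libraries, but they cannot tell whether the libraries were paired. At 3 reads, worth 2.066 to 4.036 normalised counts, depth limits Mpc1, and Pdk2 in KO.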

Other observations

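The deposited FPKM was not a fixed multiple of the normalised count for every gene. For Pdp2 and Pcx, some of whose calls were also lost in the FPKM table, it was nearly so: 1000 normalised counts stood for 12.2 FPKM of Pdp2 in every library and for 17 to 17.1 FPKM of Pcx. For Pdk2 it was 37.2 and 87.5 FPKM per 1000 normalised counts in KO, 37.2 being replicate 1, and 37.1 and 38.9 in WT, with a highest value 2.36 times the lowest over the 10 libraries. The same ratio of highest to lowest was 2 for Pdk4, 1.83 for Mpc1, 1.82 for Pdk1, 1.53 for Pdk3, 1.27 for Dlat and 1.24 for both Pdp1 and Mpc2. How the FPKM values were made is not given in the sources used here, and the cause was not tested.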
